A study of Mus musculus with 12 samples.

Results

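The comparison described here is an interaction: the effect of losing Atr in a cerebellum without Bax and Bak, minus the effect of losing Atr in a cerebellum without p53. It uses all 12 samples of the series, 3 in each of 4 genotype groups, and all 719071 exon-region and exon-junction probe sets of the array. The Atr BaxBak mutants carried Math1-Cre together with Atr-loxP/loxP, with Bax-loxP/loxP and with Bak--/-, and the BaxBak controls carried the same alleles without Atr-loxP/loxP. The Atr p53 mutants carried Math1-Cre with Atr-loxP/loxP and with p53-loxP/loxP, and the p53 controls carried Math1-Cre with p53-loxP/loxP alone. Every animal was on a C57BL/6 strain at postnatal day 3, and RNA came from whole cerebella after the meninges were taken off. Math1-Cre recombines in the precursors of granule cells and in other descendants of the rhombic lip, so most other cerebellar cells kept floxed Atr, Bax and p53, while Bak--/- was carried by every cell. No group without Cre and none with intact Bax, Bak and p53 was analysed here. The interaction is written on the log2 scale as (Atr BaxBak mutants minus BaxBak controls) minus (Atr p53 mutants minus p53 controls), and a positive value means that the first difference was the more positive one.

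Atr is the kinase that responds to stalled replication forks, and it restrains origin firing and entry into mitosis while DNA is incompletely copied. Granule cell precursors divide rapidly in the external granule layer after birth, and cells that lose Atr there accumulate damaged DNA. Damaged DNA activates p53, which induces genes for cell cycle arrest and for cell death, and the death genes act through Bax and Bak at the mitochondrion. The 2 backgrounds therefore block that response at different steps: cells without Bax and Bak still have p53, and cells without p53 still have Bax and Bak.

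Array medians lay between 6.46 and 6.49 log2 units. The negative control probe sets, which match no mouse transcript, were brighter in the Atr BaxBak mutants (group mean 4.43) than in the BaxBak controls (4.11), and their means were 4.30 in the Atr p53 mutants and 4.23 in the p53 controls, an interaction of 0.26. Atr p53 mutant 2, at 4.50, was as bright in these probe sets as the Atr BaxBak mutants. The sample titles carry an unexplained number that differs between the groups: all Atr BaxBak mutants share one number that no other sample has, so this number and the genotype cannot be told apart there. Whether the 3 samples within each genotype are separate animals is not stated in the labels, and the p-values reflect only how far those samples differ, which may be technical. Whole cerebella were measured, and fewer cells of a type and less RNA per cell cannot be told apart.

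Trp53 was the only targeted gene with named probe sets (6), and its mean was lower in both groups with floxed p53. Its mean log2 signal was 9.68, 9.75 and 9.78 in the Atr BaxBak mutants, against 9.16, 8.997 and 9.05 in the BaxBak controls. It was 8.79, 8.78 and 8.78 in the Atr p53 mutants, against 8.61, 8.79 and 8.60 in the p53 controls. Every sample with floxed p53 lay below every sample without it, and the BaxBak controls exceeded the p53 controls by 0.40 (limma, adjusted p = 0.0030). The interaction of Trp53 itself was 0.55 ± 0.09 (SE), but no single probe set of the gene was called, so the gene was not called. Atr, Bax and Bak1 were not analysed here.

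The interaction was called for 582 probe sets, 317 of them higher and 265 lower (limma, Benjamini-Hochberg adjusted p under 0.05 over all probe sets). That is 0.0809% of the probe sets tested, and 11.5% had an unadjusted p under 0.05. Interactions of called probe sets ranged from 0.80 to 5.67 in size, with a median of 1.64. The called probe sets comprised 374 exon regions and 208 junctions, and 25 of them shared all their values with another called probe set. Gene names were available only for probe sets that differed between Atr BaxBak mutants and BaxBak controls in the authors' own test, so the named genes were chosen on 6 of the 12 samples. Of 7916 named genes, 215 were called (2.72%), 99 of them higher (1.25%) and 116 lower (1.47%). A call needed the gene's mean over its probe sets and at least 1 of its probe sets over the whole array to pass in the same direction. The gene mean alone passed for 6630 genes (83.8%), a share that carries the selection of the names. When each array's negative control mean was added to the fit, 131 probe sets were called, 101 higher and 30 lower, and 116 of them were among the 582. Without Atr p53 mutant 2, 1034 were called, 397 higher and 637 lower, and without BaxBak control 2, 167 were called, 127 higher and 40 lower, so the balance of directions also rested on single samples.

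Over the whole array, most called probe sets had an effect of Atr loss in the BaxBak background and one near 0 in the p53 background. The BaxBak-background effect passed limma on its own in 559 of the 582 probe sets, and the p53-background effect in 15. In 452 of them the p53-background effect was under 25% of the BaxBak-background effect in size. The Atr BaxBak mutants were the group farthest from the mean of the other 3 groups in 530 probe sets, the BaxBak controls in 19, the Atr p53 mutants in 21 and the p53 controls in 12. In 527 of the 530, all 3 Atr BaxBak mutants lay outside the range of the other 9 samples. The 530 were chosen as called and with this group farthest away, so this separation follows largely from the choice. The shares of all tested probe sets with such a separation, or with either effect passing, were not counted. The named genes had been chosen for a difference in the BaxBak background, so their own medians are a description and support nothing. Among genes called higher, the median effect of Atr loss was 1.19 in the BaxBak background and -0.05 in the p53 background. Among genes called lower, the medians were -1.004 and -0.02.

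**Figure D1:**
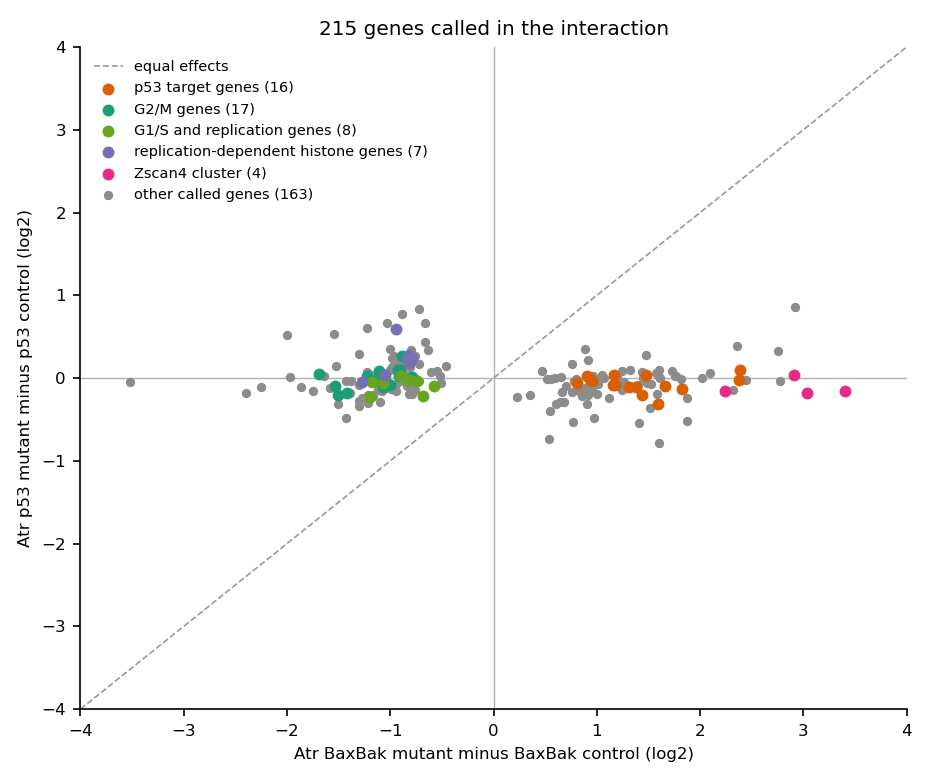
Each point is 1 of the 215 genes called in the interaction, placed by the effect of Atr loss in the BaxBak background (x axis, log2) and in the p53 background (y axis, log2), with lists in colour. Points lie along the horizontal line at 0 and away from the dashed line of equal effects, with median y values of -0.05 for genes called higher and -0.02 for genes called lower.

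Genes that p53 activates made up the largest number of genes called higher from any of the lists. Of 71 target genes listed, 45 had a named probe set, 16 were called higher and none lower, against 1.25% higher over all named genes. The lists were chosen with earlier results of these data known, and names came from the authors' BaxBak comparison. This share and those of the lists below are therefore descriptions. Their median interaction was 0.88, against -0.23 over all named genes. The median effect over the list was 0.89 in the BaxBak background and -0.07 in the p53 background. There no member passed limma as higher and 1, Rap2b, passed as lower. Over all 7916 named genes 91 passed as higher and 105 as lower, so these counts among 45 members are near those shares. The list's level, as a mean over its 45 genes, lay between 8.25 and 8.31 in the Atr BaxBak mutants, against 7.44 to 7.53 in the BaxBak controls. It lay between 7.36 and 7.42 in the Atr p53 mutants, against 7.39 to 7.46 in the p53 controls.

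Cdkn1a, which encodes the cyclin-dependent kinase inhibitor p21, had 10.88, 11.002 and 10.88 log2 units in the Atr BaxBak mutants, against 9.59, 9.39 and 9.35 in the BaxBak controls. It had 9.50, 9.51 and 9.66 in the Atr p53 mutants, against 9.53, 9.56 and 9.47 in the p53 controls. The Atr BaxBak mutants lay above all other samples, and the other 3 groups overlapped. The interaction was 1.44 ± 0.10 (limma, adjusted p = 9.1e-06), from effects of 1.48 ± 0.07 in the BaxBak background and 0.03 ± 0.07 in the p53 background. Fas, the death receptor, had 6.65, 6.73 and 6.54 in the Atr BaxBak mutants, against 4.35, 4.203 and 4.22 in the BaxBak controls. It had 4.22, 4.27 and 4.06 in the Atr p53 mutants, against 4.04, 4.08 and 4.14 in the p53 controls. As a mean over its probe sets, Fas was thus bright in the Atr BaxBak mutants and near or below the negative controls in the other 3 groups. Some of its probe sets were above the negative controls in all 4 groups. In PSR1900004442.mm.1 the group means were 7.64 (Atr BaxBak mutants), 5.79 (BaxBak controls), 5.92 (Atr p53 mutants) and 5.71 (p53 controls). The interaction of the Fas mean was 2.29 ± 0.10 (limma, adjusted p = 2.3e-07), and 2.32 with values raised to each array's negative control mean.

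Pmaip1, which encodes the pro-death BH3-only protein Noxa, had 7.85, 7.93 and 7.97 in the Atr BaxBak mutants, against 5.94, 6.01 and 6.33 in the BaxBak controls. It had 6.32, 5.86 and 6.16 in the Atr p53 mutants, against 6.15, 6.38 and 6.22 in the p53 controls, and its interaction was 1.96 ± 0.17 (limma, adjusted p = 3.9e-05). Genes of cell cycle arrest and genes of cell death were thus both among those called. Cd80, a ligand that costimulates T cells, had an interaction of 2.40 over 15 probe sets, although its brightest probe set gave 0.50. Trp53inp1, a nuclear protein that cooperates with p53, had an interaction of 1.64, and all of its 15 probe sets shared that sign. Ano3, a member of the anoctamin membrane protein family, had 1.49 over 40 probe sets of the same sign. Dcxr, a carbonyl reductase, had 1.42 over 18 probe sets. The other called members were Tnfrsf10b and Eda2r, which encode receptors of the tumour necrosis factor family, the p53 relative Trp73, the death-domain adaptor Pidd1, the translesion polymerase Polk, and Psrc1, Ptp4a3, Tap1 and the non-coding Pvt1.

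Mdm2, which encodes the ligase that degrades p53, was not called although its gene mean stood apart. It had 9.87, 9.88 and 9.87 in the Atr BaxBak mutants, against 9.17, 9.23 and 9.21 in the BaxBak controls. It had 9.003, 9.12 and 9.13 in the Atr p53 mutants, against 9.07, 9.16 and 9.14 in the p53 controls. All 16 of its probe sets had a positive interaction, with a gene mean of 0.71 ± 0.07, and none was called. Over all 7916 named genes, 3214 had an interaction above 0 and 4702 below it. Of the 45 named members of the list, 38 were above 0 and 7 below it. The lowest were Bloc1s2 (-1.07, 1 probe set) and Pml (-0.92, 3 probe sets), neither of which was called.

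**Figure D2:**
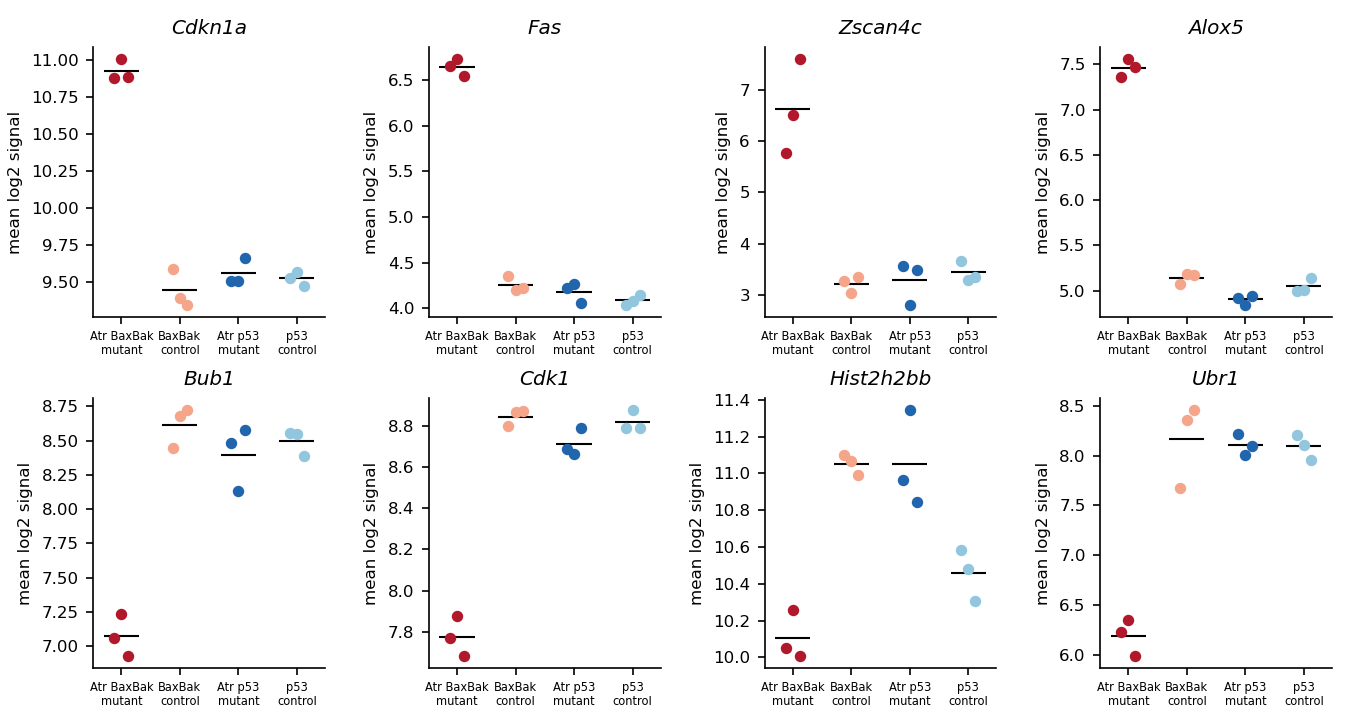
Mean log2 signal of 8 genes in each of the 12 samples (points; 3 a group) with the group mean (line), the Atr BaxBak mutants at the left of the BaxBak controls and the Atr p53 mutants at the left of the p53 controls; the axes do not start at 0. Cdkn1a is near 10.9 in the Atr BaxBak mutants and between 9.35 and 9.66 in all other samples, and Hist2h2bb is the one gene drawn in which all Atr p53 mutants lie above all p53 controls.

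Promoters of called genes were searched for the consensus p53 response element, which consists of 2 half-sites of 10 bases without a spacer, because p53 binds this element directly. A match allowed 2 mismatches outside the 4 fixed C and G bases of the half-site cores, within windows of 250 bases before and 50 after each start site (RefSeq, GRCm38.p6). The consensus reads the same on both strands. A match was present in 7 of 95 windows of genes called higher (7.37%), in 1 of 106 windows of genes called lower (0.943%), in 25 of 7312 windows of all named genes (0.342%) and in 107 of all 32851 windows (0.326%). The 7 genes were Cdkn1a and Calhm2, each with 1 mismatch, and Trp73, Cd80, Zfp365, Stox2 and Ms4a10, each with 2. Kif23 held the match among genes called lower. Of these matches 4 are printed 5′ to 3′ with 15 bases on either side and the matched element in capitals, since they show the element beside the interaction of its gene.
Cdkn1a, chr17:29090913-29090962, plus strand: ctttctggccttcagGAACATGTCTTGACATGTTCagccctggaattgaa
Calhm2, chr19:47138436-47138485, minus strand: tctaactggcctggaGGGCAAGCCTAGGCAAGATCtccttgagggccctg
Cd80, chr16:38458807-38458856, plus strand: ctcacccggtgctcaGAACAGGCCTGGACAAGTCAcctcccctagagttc
Trp73, chr4:154097205-154097254, minus strand: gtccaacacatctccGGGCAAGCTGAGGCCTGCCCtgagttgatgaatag
The interactions of these genes were 1.44 for Cdkn1a, 1.31 for Calhm2, a member of the calcium homeostasis modulator family, 2.40 for Cd80 and 1.23 for Trp73. The Cdkn1a match lies 51 bases before the more upstream of 2 annotated start sites, and the 250 bases before that start, chr17:29090729-29090978 on the plus strand, read as follows with the same element in capitals.
Cdkn1a, upstream window: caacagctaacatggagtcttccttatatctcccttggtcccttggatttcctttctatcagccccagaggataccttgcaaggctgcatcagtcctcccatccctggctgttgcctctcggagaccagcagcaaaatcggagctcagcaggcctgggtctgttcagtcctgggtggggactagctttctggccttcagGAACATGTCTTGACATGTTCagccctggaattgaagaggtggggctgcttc

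Outside that list the genes called higher included members of the Zscan4 cluster on chromosome 7, zinc finger genes known in mouse from a transient state of early embryos and embryonic stem cells. Zscan4c had 5.77, 6.51 and 7.59 in the Atr BaxBak mutants, against 3.27, 3.04 and 3.35 in the BaxBak controls. It had 3.56, 2.81 and 3.48 in the Atr p53 mutants, against 3.67, 3.29 and 3.36 in the p53 controls. The Atr BaxBak mutants were spread over almost 2 log2 units and all lay above the negative controls, while the other 9 samples lay below them. The interaction was 3.56 ± 0.50 (limma, adjusted p = 0.00038), and it was 2.45 when values under each array's negative control mean were raised to that mean. Zscan4f (3.21), Zscan4d (2.87) and Zscan4a (2.40) were also called, but these near-identical copies share probe sets with the same values, so the 4 genes do not count as 4 observations.

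Alox5 encodes the lipoxygenase that starts leukotriene synthesis, and it had the smallest p of all named genes. It had 7.36, 7.55 and 7.47 in the Atr BaxBak mutants, against 5.08, 5.18 and 5.18 in the BaxBak controls, and 4.92, 4.84 and 4.94 in the Atr p53 mutants, against 4.996, 5.01 and 5.14 in the p53 controls. All 32 of its probe sets had a positive interaction, 20 of them were called, and the gene mean was 2.46 ± 0.09 (limma, adjusted p = 9.8e-08). Zfp750, a zinc finger factor of epidermal differentiation, had 7.01, 7.42 and 7.20 in the Atr BaxBak mutants, against 4.57, 4.88 and 4.83 in the BaxBak controls. In the p53 background it had 4.67, 4.53 and 4.83 in the Atr p53 mutants, against 4.62, 4.61 and 4.86 in the p53 controls, and its interaction was 2.47 ± 0.17. For Zfp750 the samples of the other 3 groups overlapped, while for Alox5 the Atr p53 mutants lay just below both control groups, an effect of -0.14 ± 0.07 that did not pass (limma, adjusted p = 0.19).

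Igtp, an interferon-inducible GTPase, and Cxcl11, an interferon-inducible chemokine, had interactions of 2.11 ± 0.25 and 2.02 ± 0.16. Cxcl11 was above the negative controls in the Atr BaxBak mutants only (5.70, 5.91 and 5.54), and its interaction was 1.54 with values raised to the negative controls. Of the 7 named genes in the list of interferon and cytosolic DNA response genes, none was called in either direction, against 2.72% of all named genes. The median interaction of the 7 was 0.79, with 5 above 0 and 2 below, but 0.24 when each gene was read by its brightest probe set. Mx2 (1.302) and Ifit2 (-0.68) stood at the ends of the list and were not called. Them5, a mitochondrial acyl-CoA thioesterase, had 2.04 as a gene mean and 0.36 in its brightest probe set. Of the 99 genes called higher, 76 belonged to none of the lists.

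Genes called lower were led by genes of dividing cells. Of 60 G2/M genes listed, 55 were named and 17 called lower, none higher, against 1.47% lower over all named genes. All 55 had an interaction below 0, against 4702 of all 7916 named genes. The median of the list was -0.80, against -0.23 over all named genes. The median effect over the list was -0.97 in the BaxBak background and -0.10 in the p53 background. The list's mean level lay between 7.82 and 8.03 in the Atr BaxBak mutants, against 8.81 to 8.92 in the BaxBak controls. It lay between 8.37 and 8.76 in the Atr p53 mutants, with Atr p53 mutant 2 the lowest, against 8.66 to 8.75 in the p53 controls.

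Bub1, a kinase of the spindle assembly checkpoint, had 7.06, 7.24 and 6.93 in the Atr BaxBak mutants, against 8.45, 8.68 and 8.72 in the BaxBak controls. It had 8.48, 8.13 and 8.58 in the Atr p53 mutants, against 8.56, 8.55 and 8.39 in the p53 controls. All 48 probe sets had a negative interaction and 15 were called, with a gene mean of -1.44 ± 0.17 (limma, adjusted p = 0.00017). Cdk1, the kinase that drives entry into mitosis, had 7.77, 7.88 and 7.68 in the Atr BaxBak mutants, against 8.80, 8.87 and 8.87 in the BaxBak controls. It had 8.69, 8.66 and 8.79 in the Atr p53 mutants, against 8.79, 8.88 and 8.79 in the p53 controls, an interaction of -0.96 ± 0.09 (limma, adjusted p = 4.1e-05). In both genes the Atr BaxBak mutants lay below all 9 other samples, and the Atr p53 mutants reached or overlapped their controls.

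Sgol1, the shugoshin that protects centromeric cohesion, had the largest negative interaction of the list at -1.74 ± 0.17. It had 6.83, 6.93 and 6.80 in the Atr BaxBak mutants, against 8.43, 8.56 and 8.65 in the BaxBak controls, and 7.84, 7.80 and 8.22 in the Atr p53 mutants, against 8.08, 7.92 and 7.72 in the p53 controls. The kinetochore genes Ndc80 (-1.25), Cenpk (-1.20) and Nuf2 (-1.13) and the cohesin acetyltransferase Esco2 (-1.30) were called as well. The remaining called members were Aurka, Ttk, Plk4, Kif18a, Kif23, Nusap1, Anln, Spc25, Cenpa and Cenpe, all of which act in spindle assembly, chromosome segregation, centriole duplication or cytokinesis. Outside the list, 2810417H13Rik, now named Pclaf and encoding a PCNA-binding factor, had 6.99, 7.12 and 6.71 in the Atr BaxBak mutants, against 9.19, 9.30 and 9.09 in the BaxBak controls. It had 8.70, 8.51 and 8.75 in the Atr p53 mutants, against 8.72, 8.79 and 8.76 in the p53 controls, and its interaction of -2.15 ± 0.14 was the largest negative one among genes with 3 or more probe sets.

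The cell cycle homology region, a promoter element at which cell cycle genes are repressed in resting cells, was searched as TTTGAA on both strands in the same windows. It was present in 29.2% of 106 windows of genes called lower, 14.7% of 95 windows of genes called higher, 13.0% of 7312 windows of all named genes and 17.9% of all 32851 windows. Cdk1 is shown because the element lies upstream of its start site, with the 6 letters in capitals.
Cdk1, chr10:69352963-69352998, minus strand: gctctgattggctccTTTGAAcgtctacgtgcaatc

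G1/S and replication genes were called in the same direction. Of 51 named members 8 were called lower and none higher, against 1.47% lower over all named genes. All 51 interactions were below 0, against 4702 of all 7916 named genes, and the median of the list was -0.60. The median effect over the list was -0.89 in the BaxBak background and -0.23 in the p53 background. There 49 of 51 lay below 0 and 1 passed limma as lower, against 4646 and 105 of all 7916 named genes. Tyms, thymidylate synthase, had 7.58, 7.77 and 7.505 in the Atr BaxBak mutants, against 8.84, 8.85 and 8.77 in the BaxBak controls. It had 8.48, 8.48 and 8.59 in the Atr p53 mutants, against 8.69, 8.81 and 8.73 in the p53 controls. The Atr p53 mutants were thus all below their controls too, by 0.22 ± 0.07 (limma, adjusted p = 0.092), and the interaction was -0.98 ± 0.10. Prim1, the catalytic primase subunit, had an interaction of -1.01 and Rfc4, a subunit of the clamp loader, -0.92. The other called members were Pcna, Prim2, Pole2, Rfc2 and the cyclin Ccne2.

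Among 32 named homologous recombination and Fanconi genes 4 were called lower, among them Fancb (-0.94), a subunit of the Fanconi core complex, Rad54l and Exo1. The median of this list was -0.53, and 1.47% of all named genes were called lower. None of the 19 named checkpoint and damage signalling genes was called, with a median of -0.48. Over all named genes 2.72% were called, so the absence of a call does not set so short a list apart. Chek1, the kinase that Atr activates, was at -0.84 ± 0.15 and Tipin, a fork protection protein, at -0.85 ± 0.10, and neither was called. None of the 10 named apoptosis machinery genes was called either, with a median of -0.23, or -0.14 without Atr p53 mutant 3. The 8 named heat shock, hypoxia and integrated stress genes had no call and a median of 0.39, or 0.22 with the median of each gene's probe sets.

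Replication-dependent histone genes were called lower in the interaction with effects mostly above 0 in the p53 background. Of 22 named members 7 were called lower and none higher, and the median interaction of -0.93 combined a median of -0.75 in the BaxBak background with 0.18 in the p53 background. In the p53 background 21 of the 22 had an effect above 0 and 3 passed limma as higher. Of all 7916 named genes, 4646 had an effect below 0 there and 91 passed as higher. Hist2h2bb, an H2B gene, had 10.05, 10.26 and 10.01 in the Atr BaxBak mutants, against 11.10, 11.06 and 10.99 in the BaxBak controls. It had 10.96, 11.34 and 10.84 in the Atr p53 mutants, against 10.58, 10.48 and 10.31 in the p53 controls. Neither pair overlapped, and the directions were opposite: -0.95 ± 0.12 in the BaxBak background and 0.59 ± 0.12 in the p53 background (limma, adjusted p = 0.035 over the named genes), an interaction of -1.54 ± 0.17. The p53 controls also lay below the BaxBak controls, by 0.59. Hist1h1b, a linker histone gene, did not follow this pattern, with -1.28 ± 0.09 in the BaxBak background and -0.05 ± 0.09 in the p53 background. Hist1h2bg (-1.10), Hist1h2bh (-1.03) and Hist1h2bk (-0.997) are H2B genes of the large histone cluster, and probe signals of such near-identical copies are uncertain. Replication-dependent histone transcripts largely lack poly(A) tails. The labels describe these samples as poly-A selected, but their protocol gives 500 ng of total RNA as the labelling input. Which of these applied to the histone signal was not tested.

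**Figure D3:**
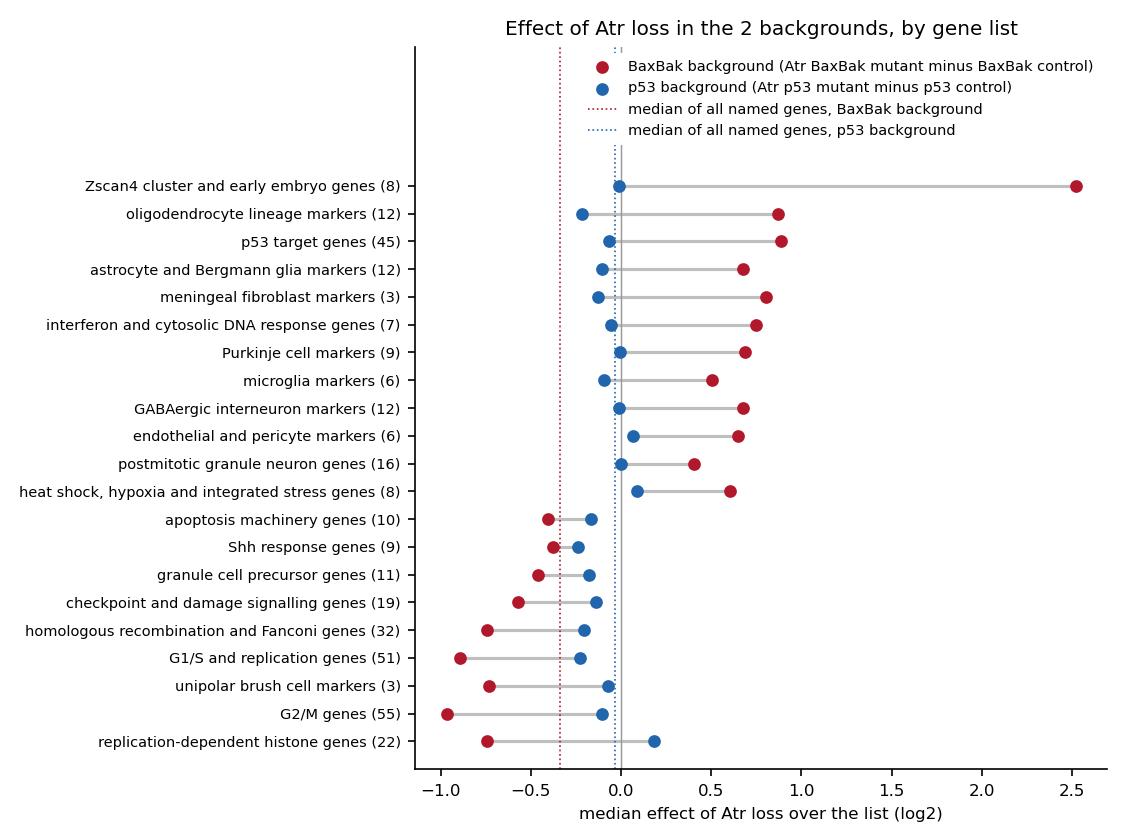
Median effect of Atr loss over the named members of each gene list (log2), in the BaxBak background (red) and in the p53 background (blue); numbers in brackets are named members, lists are ordered by median interaction, and dotted lines mark the medians of all named genes. Blue points lie between -0.24 and 0.18 for every list, while red points run from -0.97 for the G2/M genes to 2.52 for the Zscan4 list.

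Markers of cerebellar cell types differed between lists in their median interaction, and few of them were called. Names existed only for markers that passed the authors' own test of the BaxBak background, and the medians describe those members only. Named were 12 of 19 listed oligodendrocyte lineage markers, 12 of 20 of astrocytes and Bergmann glia and 9 of 20 of Purkinje cells. For GABAergic interneurons they were 12 of 16, for endothelium and pericytes 6 of 18 and for microglia 6 of 20. The granule cell precursor list had 11 of 20 named and the Shh response list 9 of 19. Markers of cells outside the Math1 lineage had median interactions above 0: 1.07 for 12 oligodendrocyte lineage markers, 0.82 for 12 astrocyte and Bergmann glia markers, 0.67 for 9 Purkinje cell markers, 0.57 for 12 GABAergic interneuron markers, 0.57 for 6 endothelial and pericyte markers and 0.60 for 6 microglia markers. Over 11 named genes of granule cell precursors the median was -0.30, and over 9 Shh response genes it was -0.24 (-0.14 without p53 control 1), against -0.23 over all named genes. Among all these markers 2 genes were called, which is near the share of 2.72% over all named genes. They were Sox10 (1.07 ± 0.13), a regulator of the oligodendrocyte lineage, and Slc4a4 (0.92 ± 0.14), a bicarbonate cotransporter of astrocytes. Sox10 had 9.06, 8.92 and 9.21 in the Atr BaxBak mutants, against 8.14, 8.23 and 8.25 in the BaxBak controls, and 7.86, 7.86 and 7.96 in the Atr p53 mutants, against 7.90, 8.24 and 8.18 in the p53 controls.

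Expressed as a mean over its genes, the level of the granule cell precursor list lay between 9.56 and 9.63 in the Atr BaxBak mutants, against 9.95 to 10.05 in the BaxBak controls, and between 9.64 and 9.88 in the Atr p53 mutants, against 9.90 to 10.03 in the p53 controls. The Atr p53 mutants were below their controls as well, Atr p53 mutant 2 the furthest. The oligodendrocyte list lay between 8.62 and 9.03 in the Atr BaxBak mutants, against 7.87 to 8.18 in the BaxBak controls, and between 7.65 and 7.70 in the Atr p53 mutants, against 7.67 to 7.96 in the p53 controls. The Purkinje cell list lay between 9.63 and 9.69 in the Atr BaxBak mutants, against 8.86 to 9.02 in the BaxBak controls, and between 9.01 and 9.19 in the Atr p53 mutants, against 9.02 to 9.13 in the p53 controls. The part of these marker levels in the interactions of the other lists was not tested. Postmitotic granule neuron genes, which are of the Math1 lineage, had a median of 0.53 over 16 members, or 0.27 with the brightest probe sets, and 1 of them was called: Grin2a (0.95 ± 0.11), an NMDA receptor subunit read by 1 probe set. Unipolar brush cell markers, of the same lineage, had -0.70 over 3 members, with Eomes, their defining transcription factor, at -0.70 ± 0.15 and not called. The 3 named meningeal fibroblast markers had a median of 0.79. Of the erythroid and choroid plexus lists 1 gene each was named, at 0.44 and -0.71. None of these 5 genes was called, against 2.72% of all named genes.

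The 4 called genes whose p53-background effect exceeded the BaxBak-background effect in size had 1 or 2 probe sets each, and they are named here after their values were seen. Evi5, a cell cycle regulator of the Rab GTPase-activating family, had 6.51, 6.496 and 6.22 in the Atr BaxBak mutants, against 5.51, 6.03 and 6.08 in the BaxBak controls, and 5.92, 6.08 and 5.98 in the Atr p53 mutants, against 6.74, 6.81 and 6.64 in the p53 controls. Its effects were 0.54 and -0.74, but its brighter probe set gave an interaction of -0.11. BC048502 had effects of -0.72 in the BaxBak background and 0.83 in the p53 background. For 1700128A07Rik the effects were -0.66 and 0.67, but its group means were all below the negative controls, and with values raised to them the interaction was 0.26 in place of -1.33. Acaa1b, a peroxisomal thiolase, had 0.23 and -0.23, and -0.28 as the interaction of its brighter probe set. Usp14, a deubiquitinase of the proteasome, had 2.92 ± 0.15 in the BaxBak background and 0.86 ± 0.15 in the p53 background on 1 probe set, and the p53-background effect of that probe set did not pass over the whole array (limma, adjusted p = 0.51).

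In 52 called probe sets a group other than the Atr BaxBak mutants stood apart. Of 21 in which the Atr p53 mutants stood apart, 12 lay on chromosome 9, the chromosome of Atr, according to the chromosome code in the probe set's identifier. These 12 have no gene name, and a link to Atr was not tested. Of the 719071 probe sets tested, 39191 lay on that chromosome and 34048 on chromosome 3. The p53-background effects of the 12 probe sets ran from -5.03 to -1.82 and their BaxBak-background effects from -0.24 to 0.45. In all 12 the Atr p53 mutants lay outside the range of the other 9 samples, which the choice of probe sets by this group favours. PSR0900008567.mm.1 had 7.44, 7.95 and 7.49 in the Atr BaxBak mutants, against 7.17, 7.47 and 7.33 in the BaxBak controls, and 2.96, 2.55 and 3.12 in the Atr p53 mutants, against 6.88, 7.46 and 7.02 in the p53 controls. The Atr p53 mutants were therefore under the negative controls, and all others far above them. Of 12 probe sets in which the p53 controls stood apart, 6 lay on chromosome 3. PSR0300007566.mm.1 had 6.93, 7.01 and 6.80 in the Atr BaxBak mutants, against 7.10, 7.10 and 7.23 in the BaxBak controls, and 7.14, 7.25 and 6.90 in the Atr p53 mutants, against 5.16, 5.28 and 5.10 in the p53 controls. Here the p53 controls alone were low, and the other groups overlapped.

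**Figure D4:**
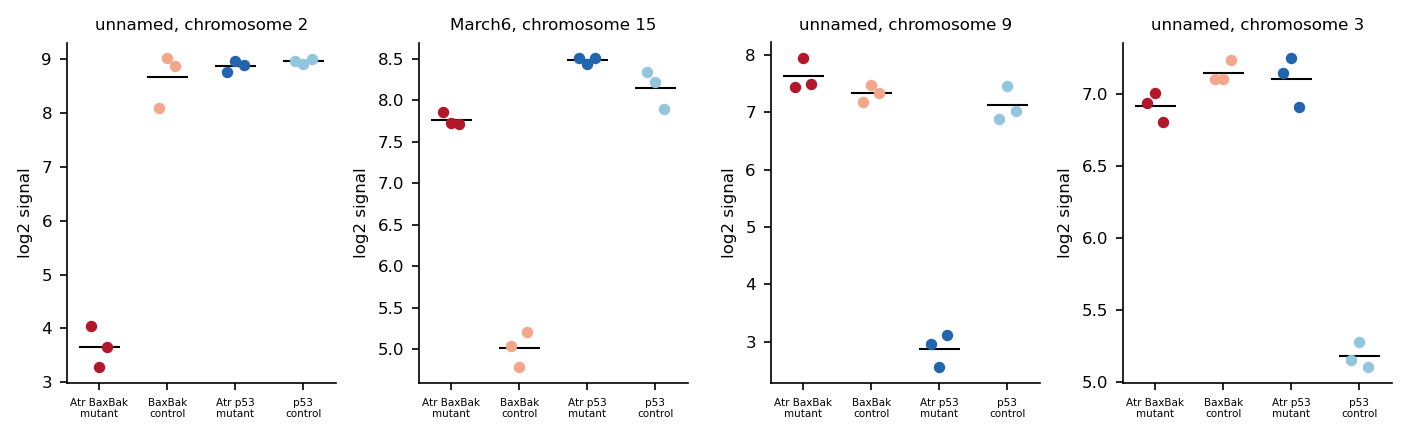
Log2 signal in each sample (points; 3 a group) with the group mean (line) for 4 called features in which a different group stands apart: an unnamed probe set of chromosome 2 (Atr BaxBak mutants), March6 (BaxBak controls), an unnamed probe set of chromosome 9 (Atr p53 mutants) and an unnamed probe set of chromosome 3 (p53 controls). In each panel all 3 samples of 1 group lie below the other 9, as with values from 2.55 to 3.12 in the Atr p53 mutants of the third panel.

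On chromosome 15, 4 called genes lay among 11 named genes in a stretch of 21 protein-coding genes in RefSeq order, and in each of the 4 the BaxBak controls stood apart. Among the 60 protein-coding genes on either side, 1 of 41 named genes was called. The BaxBak controls also stood apart in uncalled genes inside and outside the stretch, such as Cmbl inside it, whose interaction of -0.98 on 1 probe set had the other sign. March6, a ubiquitin ligase of the endoplasmic reticulum, had 7.85, 7.73 and 7.71 in the Atr BaxBak mutants, against 5.04, 4.78 and 5.21 in the BaxBak controls. It had 8.51, 8.44 and 8.51 in the Atr p53 mutants, against 8.34, 8.23 and 7.89 in the p53 controls. The BaxBak controls alone were low, and the interaction was 2.42 ± 0.17 on 1 probe set. Sema5a, a guidance cue (0.80), Trio, a guanine nucleotide exchange factor (0.53), and Myo10, an unconventional myosin (0.55), were called on 1 or 2 of their 14, 19 and 6 probe sets. In the called probe sets of these 4 genes the difference of BaxBak controls minus p53 controls ran from -4.62 to -1.36. For Myo10 only 1 of 6 probe sets had a positive interaction, and the interaction was -0.086 in the brightest and -0.12 for their median.

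On chromosome 2 the called genes formed a run. With neighbours joined where at most 20 protein-coding genes lay between them, 17 called genes fell into a stretch of 94 protein-coding genes, from Pak6 to Duox2. In it 17 of 48 named genes were called, 15 of them lower. Among the 60 protein-coding genes on either side, 2 of 43 named genes were called, Bub1 and Ryr3. The stretch was found by its calls and gets no test. Its members included Nusap1, which belongs to the G2/M list, and genes that belong to no list. In all 17 of them the Atr BaxBak mutants stood apart, as they did in 198 of all 215 called genes. Ubr1, a ubiquitin ligase of the N-degron pathway, had 6.23, 6.35 and 5.99 in the Atr BaxBak mutants, against 7.68, 8.36 and 8.46 in the BaxBak controls. It had 8.22, 8.003 and 8.10 in the Atr p53 mutants, against 8.21, 8.11 and 7.96 in the p53 controls, an interaction of -1.99 ± 0.24.

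Within these genes the probe sets disagreed. The brightest probe set gave -0.37 for Ubr1, -0.20 for Zfp106, a zinc finger gene whose mean was -1.46, and -0.18 for Frmd5, a FERM domain gene whose mean was -2.22. It gave 0.19, the other sign, for Mapkbp1 (mean -0.55). Haus2, a subunit of the augmin complex that nucleates spindle microtubules, had 3.10, 3.12 and 2.69 in the Atr BaxBak mutants, against 5.62, 6.80 and 7.06 in the BaxBak controls. It had 6.32, 6.46 and 6.76 in the Atr p53 mutants, against 6.51, 6.81 and 6.38 in the p53 controls, an interaction of -3.47 ± 0.42 over 2 probe sets, and -2.01 with values raised to the negative controls. The non-coding 1700020I14Rik, a synonym of Oip5os1 on the same chromosome, had a mean of -1.59 and -0.23 in its brightest probe set. PSR0200035768.mm.1, an unnamed probe set of this chromosome, had 4.05, 3.28 and 3.65 in the Atr BaxBak mutants, against 8.09, 9.03 and 8.88 in the BaxBak controls, and between 8.77 and 9.01 in all 6 samples of the p53 background. A shorter run on chromosome 9 held 5 called genes among 32 named, all lower in the interaction, including Clpx (-1.36), the unfoldase subunit of a mitochondrial protease, Mns1 (-1.29), a flagellar and ciliary protein, and Pclaf.

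**Figure D5:**
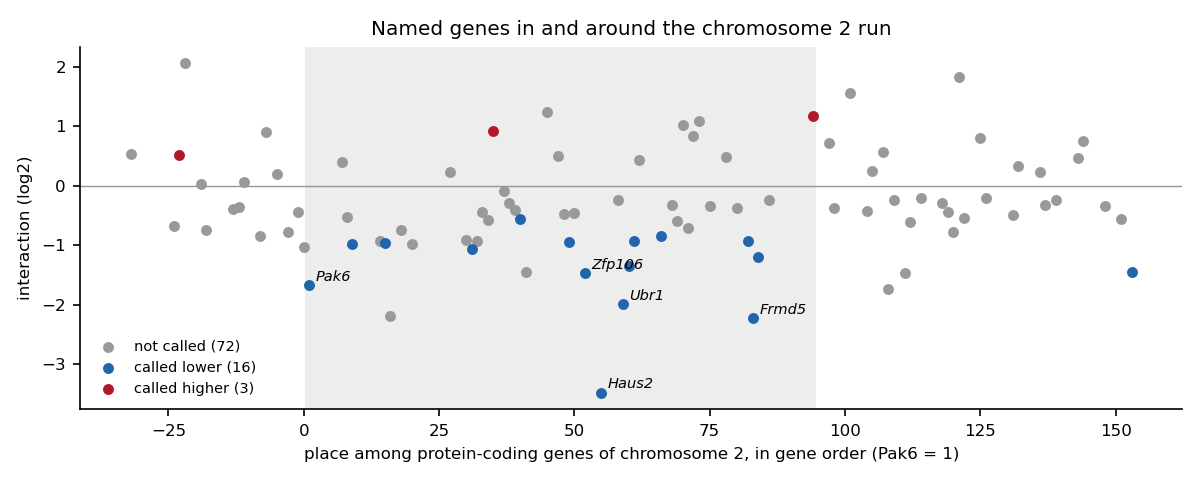
Interaction (log2) of named genes in and around the chromosome 2 run, placed by gene order among protein-coding genes (Pak6 is 1; shaded, Pak6 to Duox2), coloured by call. Of 48 named genes in the shaded stretch 17 were called, against 2 of 43 outside it, and Haus2 lies lowest at -3.47.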

How the data were processed

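RNA from whole cerebella (500 ng of total RNA a sample) was labelled with the WT PLUS kit and hybridised to Affymetrix arrays, per the labels' protocols. The deposited values are on a log2 scale, 1 per probe set and sample, with Partek listed as a tool per the submitters' processing notes; how background was corrected, how probes were summarised and which genome build was used stands in no label or header used here. Number of arrays, not depth, limits precision. Gene symbols came from the authors' deposited table of the BaxBak comparison, which lists the 34305 probe sets with a step-up p-value under 0.05; 691 probe sets with several symbols were left out, leaving 30937 on 7916 genes, of which 7599 matched a RefSeq symbol or synonym. The table's p-values served for names only. Of 725678 probe sets, 6546 controls and 61 without values were left out.

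Models were fitted with limma 3.58.1 in R 4.3.3 to all 12 samples (1 mean a group, 8 residual degrees of freedom), two-sided, with Benjamini-Hochberg adjustment over every tested probe set or over the named genes; SE are limma's. The fit was run on simulated data with known interactions. Noise in those interactions was smaller than the spread within groups implied, so the run gives no rate of false calls. Named probe sets were averaged to give a gene's value, and 50 symbols stored as dates were set back to gene symbols. A mean under that of the negative controls is called below background. The text names the 12 called genes with the largest interactions in each direction among genes with 3 or more probe sets and a mean above background in at least 1 group, up to 5 members of each of 23 gene lists by smallest p, the targeted genes, and at most 2 unnamed probe sets a direction; no gene with 3 or more probe sets had a larger p53-background effect. Remaining called members of a list, genes with a motif and neighbouring genes were named after their values were seen. Members and lists were chosen with earlier results of these data known. Figures used matplotlib 3.10.9.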

Additional observations from a re-analysis of the deposited data

Results flagged for a closer look

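The interaction tests whether Atr loss acts differently in the 2 backgrounds, and each value here passed it: 582 probe sets and 215 named genes. The interaction was positive for the Zscan4 copies Zscan4c (3.56), Zscan4f (3.21), Zscan4d (2.87) and Zscan4a (2.40). The same held for Zfp750 (2.47), Alox5 (2.46), Igtp (2.11), Them5 (2.04) and Cxcl11 (2.02). Of the p53 targets these were Cd80 (2.40), Fas (2.29), Pmaip1 (1.96), Trp53inp1 (1.64), Ano3 (1.49), Cdkn1a (1.44), Dcxr (1.42) and Trp73 (1.23). Other genes with a promoter match were Stox2 (1.51), Ms4a10 (1.36), Calhm2 (1.31) and Zfp365 (1.11). Of the marker lists these were Sox10 (1.07), Grin2a (0.95) and Slc4a4 (0.92). Genes on 1 or 2 probe sets or in the chromosome 15 stretch were March6 (2.42), Ppp2r3a (2.39), Usp14 (2.06), Evi5 (1.28), Sema5a (0.80), Myo10 (0.55), Trio (0.53) and Acaa1b (0.46).

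The interaction was negative for 2810417H13Rik (-2.15), A830029E22Rik (-2.07), 2610318N02Rik (-1.60), 1700020I14Rik (-1.59), Clpx (-1.36) and Mns1 (-1.29). Of the dividing-cell genes these were Sgol1 (-1.74), Bub1 (-1.44), Esco2 (-1.30), Ndc80 (-1.25), Cenpk (-1.20), Nuf2 (-1.13), Prim1 (-1.01), Tyms (-0.98), Cdk1 (-0.96), Fancb (-0.94) and Rfc4 (-0.92). Histone genes were Hist2h2bb (-1.54), Hist1h1b (-1.23), Hist1h2bg (-1.10), Hist1h2bh (-1.03) and Hist1h2bk (-0.997). In the chromosome 2 run they were Haus2 (-3.47), Frmd5 (-2.22), Ubr1 (-1.99), Zfp106 (-1.46) and Mapkbp1 (-0.55), and on 1 probe set BC048502 (-1.56) and 1700128A07Rik (-1.33).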

How the results depend on the processing

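Both the counts of calls and the share called higher depended on the settings. Against 582 probe sets and 215 named genes, quantile normalization, median centring, a random block for the title number and, for probe sets, a minimum interaction of 1 stayed within 1.5 times. The negative control covariate gave 131 probe sets and 51 genes, leaving out features below the negative controls 1148 and 417, array weights 1190 and 430, and an intensity trend with robust moderation 2893 and 909. Junctions alone gave 72 probe sets, exon regions alone 345 genes, and the gene mean alone 6630 genes. Chosen after seeing the data, values raised to the negative controls gave 1774 and 614, and the p53 samples of the shared title number alone, with 1 p53 control assumed to vary like the other groups, gave 52 and 20. Leaving out 1 sample gave 167 to 1034 probe sets and 61 to 327 genes. The share called higher, 54.5% of probe sets and 46.0% of genes, was 77.1% and 68.6% with the covariate, 76.0% and 63.9% without BaxBak control 2, and 38.4% and 40.1% without Atr p53 mutant 2. Genes called lower outnumbered those called higher with all samples and without Atr p53 mutant 2, and those called higher were the more numerous without any other 1 sample. The lowest counts came without BaxBak control 2 and the highest without Atr p53 mutant 2. Every other sample except Atr BaxBak mutant 1 and p53 control 1 moved the probe set count by over 1.5 times, and Atr BaxBak mutant 1 moved the gene count to 133. Of the genes in the text, 5 changed sign: Evi5 (-0.11), Acaa1b (-0.28), Mapkbp1 (0.19) and Myo10 (-0.086) in their brightest probe set, Myo10 also with the median of its probe sets (-0.12), and 1700128A07Rik with values raised to the negative controls (0.26). No list median changed sign in 17 settings, but some moved by over 1.5 times: with brightest probe sets interferon genes to 0.24, postmitotic granule neuron genes to 0.27 and the Zscan4 list to 1.37 from 2.42, with the covariate the granule neuron genes to 0.31 and Shh response genes to -0.13, and with probe set medians the stress genes to 0.22. The brightest probe set kept the call of 194 of the 215 genes, and those of the text that missed its threshold were Cd80, Them5, Ubr1, Zfp106, Frmd5, 1700020I14Rik, Evi5, Acaa1b, Mapkbp1, Myo10 and Ryr3. Dim genes such as the Zscan4 copies have their size limited by the negative controls. No paired analysis was possible because the labels give no replicate numbers that link samples across groups.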

Other observations

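Of the 215 called genes, 156 belonged to none of the 23 lists, 76 higher and 80 lower. In 52 the BaxBak controls and the p53 controls differed as well (limma, adjusted p under 0.05), so that the groups without Atr loss were not level. Ppp2r3a, a regulatory subunit of a protein phosphatase read by 1 probe set, had 6.98, 6.91 and 7.22 in the Atr BaxBak mutants, against 5.36, 5.42 and 5.54 in the BaxBak controls, and 4.64, 4.26 and 3.96 in the Atr p53 mutants, against 4.89, 5.36 and 4.98 in the p53 controls. Both pairs were separated, in opposite directions. A830029E22Rik had 5.61, 4.99 and 4.74 in the Atr BaxBak mutants, against 6.78, 6.74 and 6.44 in the BaxBak controls, and 7.21, 7.56 and 6.76 in the Atr p53 mutants, against 6.64, 6.63 and 6.67 in the p53 controls. Its p53-background effect of 0.53 did not pass (limma, adjusted p = 0.16).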
